A study of Mus musculus with 6 samples.

Results

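The enzymes that break down cyclic AMP were followed in naive helper T cells carrying an altered Aiolos on none, 1 or both copies of its gene. They were encoded by Pde2a, Pde3b, Pde4a, Pde4b, Pde4d, Pde7a and Pde8a, the cyclic nucleotide phosphodiesterases of lymphocytes, which were found by symbol and made up 7 of the 25239 genes counted. Aiolos is a zinc finger transcription factor of the Ikaros family, is encoded by Ikzf3 and carries in the N159S allele a serine in place of an asparagine.

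TCRb+CD4+CD44-CD127+ T cells were purified by FACS from the spleens of C57BL/6 mice that were Ikzf3 +/+, Ikzf3 +/N159S or Ikzf3 N159S/N159S, and RNA-seq was done on 2 libraries of each genotype. The allele was knocked into the germline, so all cells of a mouse carried it, and a change made inside the T cell cannot be told apart from one made through other cells. The methods count mice, but the labels name no animal, age or sex for a library, and p-values measure only the spread between these libraries.

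Cyclic AMP is made by adenylyl cyclases when receptors coupled to the stimulatory G protein are engaged, and it acts through protein kinase A, Epac exchange factors and the CREB transcription factors. In T cells a rise in cyclic AMP restrains signalling from the antigen receptor, and phosphodiesterases end the signal by hydrolysing the nucleotide. PDE2A is switched on by cyclic GMP and PDE3B is inhibited by it, the PDE4 enzymes are the rolipram-sensitive ones, and PDE7A and PDE8A bind cyclic AMP with high affinity.

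The libraries held 11696461 to 17317260 reads on genes and 14803 to 18147 genes with a read. All 10 T cell markers were detected, at a summed 5622 to 6362 CPM (counts scaled to a common library size by the trimmed mean of M values). The summed level of 9 B cell markers was 178 and 276 CPM in Ikzf3 +/+, 480 and 791 CPM in Ikzf3 +/N159S, and 190 and 125 CPM in Ikzf3 N159S/N159S. Of these 9, 4 were higher in Ikzf3 +/N159S and 2 were lower in Ikzf3 N159S/N159S than in Ikzf3 +/+ at an adjusted p under 0.05. All 9 were lower in Ikzf3 N159S/N159S than in Ikzf3 +/N159S at that level. The part of these markers in the results on phosphodiesterases was not tested. Markers of regulatory T cells summed to 150 and 126 CPM in Ikzf3 +/N159S and to 86.4 to 94.2 CPM in the other libraries, and those of effector and memory T cells to 128 and 121 CPM in Ikzf3 +/+, 156 and 167 CPM in Ikzf3 +/N159S, and 94.8 and 115 CPM in Ikzf3 N159S/N159S. Markers of CD8 and NK cells summed to 49.9 and 63.0 CPM with no mutant copy, 53.4 and 44.6 CPM with 1, and 39.0 and 34.1 CPM with both. Of these lists, Cd8b1 (log2 change −2.65, adjusted p = 0.00038), Il2rb (−1.52, adjusted p = 0.000397), Il2ra (−0.89, adjusted p = 0.0460) and the T cell marker Lef1 (−0.60, adjusted p = 0.0412) fell in Ikzf3 N159S/N159S against Ikzf3 +/+. No marker on them was called higher there, though Gzma (2.655), Tnfrsf18 (0.29) and Itgb1 (0.27) rose without passing. In Ikzf3 +/N159S against Ikzf3 +/+, Cxcr3 (2.18, adjusted p = 0.0220) and Ikzf2 (0.83, adjusted p = 0.0232) were called higher. The part of these shifts in the phosphodiesterase results was not tested either. Cd8b1 was at 20.1 and 13.2 CPM in Ikzf3 +/+ and at 3.14 and 2.05 CPM in Ikzf3 N159S/N159S. Myeloid markers summed to 24.5 and 22.7 CPM in Ikzf3 +/+, 26.6 and 17.8 CPM in Ikzf3 +/N159S, and 27.7 and 44.3 CPM in Ikzf3 N159S/N159S. In Ikzf3 N159S/N159S against Ikzf3 +/+ the 8 tested had log2 changes of −0.21 to 1.28 (median 0.82), and none was called. Against Ikzf3 +/N159S, S100a9 was called higher (2.14, adjusted p = 0.0380). The part of myeloid markers in the phosphodiesterase results was not tested. Of 6 erythroid markers, 4 were at 0 in every library. The inactive X transcript Xist was at 730 and 824 CPM in Ikzf3 +/N159S and at 0.772 to 1.98 CPM in the other libraries, so the heterozygous genotype and this difference cannot be told apart. Ikzf3 itself was at 157 and 154 CPM in Ikzf3 +/+, 168 and 152 CPM in Ikzf3 +/N159S, and 197 and 202 CPM in Ikzf3 N159S/N159S, and gene counts do not separate its alleles.

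In Ikzf3 N159S/N159S against Ikzf3 +/+, Pde2a and Pde8a rose, Pde4b fell, and the other 4 members did not pass the test. Pde2a had the largest of the called changes and was the member that also passed in Ikzf3 +/N159S. A gene was called at an adjusted p under 0.05 in a model fitted to all 12117 genes that passed a filter on low counts, as all 7 members did. The share called among all tested genes was 5.21% in either direction, 3.1% higher and 2.1% lower, beside 3 of 7 members called, 2 higher and 1 lower. Members were chosen with earlier results of these data known, so their counts beside shares of all genes, here and below, are not a test. With 2 libraries a genotype, an exact permutation test of 1 gene cannot go below p = 0.333.

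**Figure D1:**
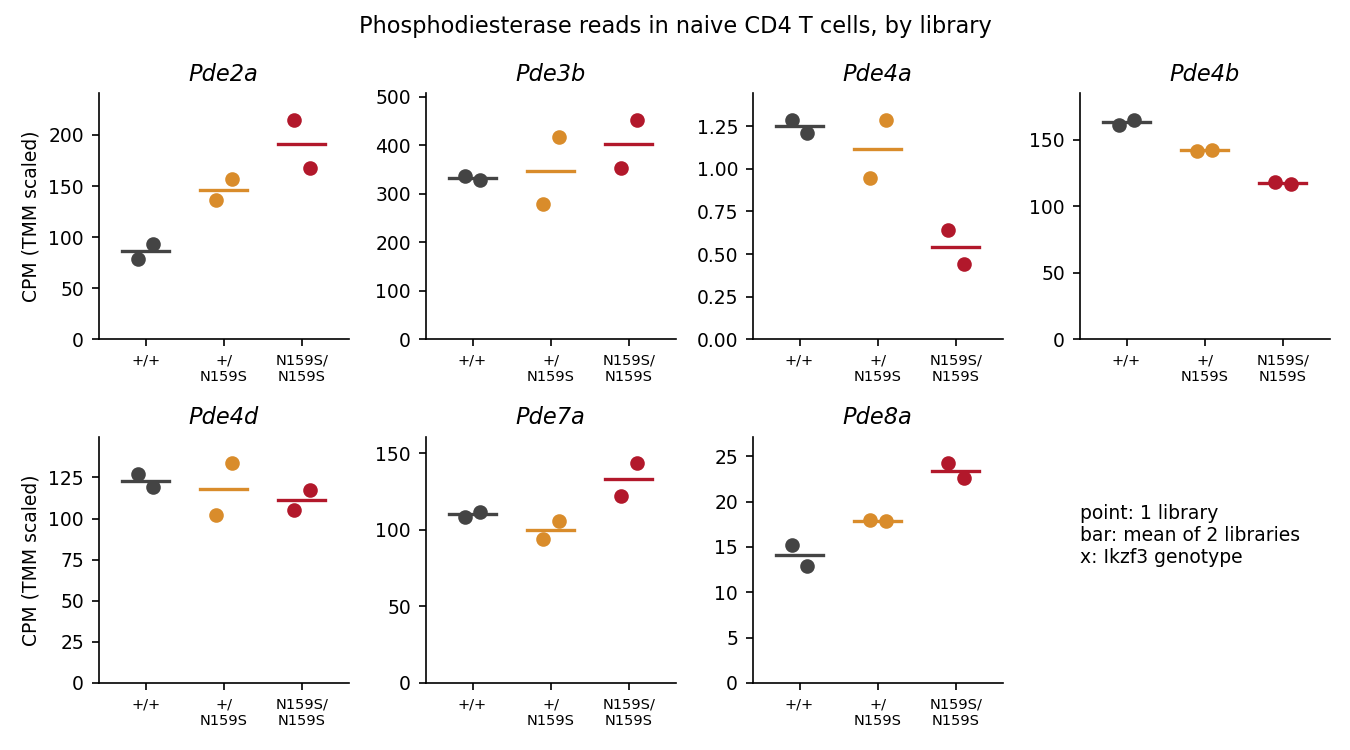
CPM (y axes, starting at 0) of each phosphodiesterase gene in every library, with the Ikzf3 genotype on the x axes, a point for each library and a bar for the mean of 2 libraries. Pde2a and Pde8a stepped up from Ikzf3 +/+ through Ikzf3 +/N159S to Ikzf3 N159S/N159S, and Pde4b stepped down, without overlap between genotypes. The steps between the mutant genotypes were not called, nor were those from Ikzf3 +/+ to Ikzf3 +/N159S for Pde8a and Pde4b. How many of all genes keep such an order was not counted.

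Pde2a lies at chr7:101421691-101512829 on the plus strand (GRCm38.p6, RefSeq). It encodes the phosphodiesterase that cyclic GMP stimulates, which acts on both cyclic nucleotides. It was at 79.0 and 93.0 CPM in Ikzf3 +/+, at 136 and 157 CPM in Ikzf3 +/N159S, and at 215 and 167 CPM in Ikzf3 N159S/N159S. The 3 genotypes did not overlap, and the lowest and highest values belonged to Ikzf3 +/+ and Ikzf3 N159S/N159S. These values rest on 921 to 3695 reads a library. In Ikzf3 N159S/N159S against Ikzf3 +/+ the log2 fold change was 1.15 ± 0.14 (SE, n = 2 a genotype), a 2.22-fold rise with a 95% interval of 0.85 to 1.45 on the log2 scale (adjusted p = 0.000645). The rise passed in all 12 alternatives planned for it, over which the log2 change was between 0.96 and 1.33. With 1 mutant copy, in Ikzf3 +/N159S, Pde2a was 1.70-fold above Ikzf3 +/+ (log2 change 0.77 ± 0.14, 95% interval 0.47 to 1.07, adjusted p = 0.0213). That call was lost when Ikzf3 +/+ replicate 1 was left out (0.65, adjusted p = 0.126) and when Ikzf3 +/N159S replicate 2 was left out (0.67, adjusted p = 0.0723). Of its 6149 exonic bases, 3955 also lie in the same-strand GENCODE model Gm45837, which was not analysed here. In bulk RNA, a change in the number of cells that express a gene and a change in its RNA per cell cannot be told apart.

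Pde8a lies at chr7:81213265-81334535 on the plus strand and encodes a high-affinity enzyme that the usual inhibitor IBMX does not block. It was at 15.3 and 12.9 CPM in Ikzf3 +/+, at 18.0 and 17.8 CPM in Ikzf3 +/N159S, and at 24.2 and 22.6 CPM in Ikzf3 N159S/N159S, from 178 to 417 reads a library. Its genotypes also stood apart in the same order as those of Pde2a, at lower levels. The rise in Ikzf3 N159S/N159S was 1.67-fold (log2 change 0.74 ± 0.14, 95% interval 0.43 to 1.05, adjusted p = 0.0123). The call was lost without Ikzf3 +/+ replicate 2 (0.62, adjusted p = 0.121) and without Ikzf3 N159S/N159S replicate 1 (0.69, adjusted p = 0.0776). In Ikzf3 +/N159S the log2 change from Ikzf3 +/+ was 0.35 with a 95% interval of 0.03 to 0.67, which did not pass after adjustment (adjusted p = 0.263).

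Pde4b lies at chr4:102087332-102607275 on the plus strand and encodes a cyclic AMP-specific enzyme that is recruited to the stimulated antigen receptor. It was at 161 and 165 CPM in Ikzf3 +/+, at 142 and 142 CPM in Ikzf3 +/N159S, and at 118 and 117 CPM in Ikzf3 N159S/N159S. Replicates lay close together, so small steps between genotypes left no overlap. The fall in Ikzf3 N159S/N159S left 0.72 of the level in Ikzf3 +/+ (log2 change −0.47 ± 0.09, 95% interval −0.67 to −0.28, adjusted p = 0.0112). Leaving out any of the 4 libraries of those genotypes ended the call, at adjusted p = 0.0652 to 0.0946, while the log2 change stayed between −0.49 and −0.45. In Ikzf3 +/N159S the log2 change was −0.20, and its 95% interval ended just below 0 (adjusted p = 0.305).

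The other PDE4 genes did not pass. Pde4d, at chr13:108654177-109955969 on the plus strand, encodes a PDE4 enzyme with many isoforms. It was at 127 and 119 CPM in Ikzf3 +/+, at 102 and 134 CPM in Ikzf3 +/N159S, and at 105 and 117 CPM in Ikzf3 N159S/N159S. The Ikzf3 +/N159S libraries spanned all other libraries, and the log2 change in Ikzf3 N159S/N159S was −0.14 with a 95% interval of −0.43 to 0.14 (adjusted p = 0.619). Pde4a, at chr9:21165700-21213248 on the plus strand, gave few reads, 15 and 18 for Ikzf3 +/+, 16 and 20 for Ikzf3 +/N159S, and 11 and 6 for Ikzf3 N159S/N159S. At this depth a log2 change from −2.36 to 0.009 lay inside the 95% interval around its −1.18 in Ikzf3 N159S/N159S (adjusted p = 0.277), so neither a fall nor a level like that of Ikzf3 +/+ was resolved.

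Pde3b, at chr7:114415222-114537938 on the plus strand, encodes the insulin-responsive enzyme that cyclic GMP inhibits, and it had the most reads of the 7. It was at 336 and 328 CPM in Ikzf3 +/+, at 278 and 416 CPM in Ikzf3 +/N159S, and at 353 and 452 CPM in Ikzf3 N159S/N159S. Replicates of the mutant genotypes lay far apart, and the log2 change in Ikzf3 N159S/N159S was 0.28 with a 95% interval of −0.09 to 0.65 (adjusted p = 0.435). For Pde3b and Pde4d alike, the higher library of each genotype was the one in which more genes were detected, with 16873 against 15888 genes in Ikzf3 +/+, 18147 against 15079 in Ikzf3 +/N159S, and 17571 against 14803 in Ikzf3 N159S/N159S. With this split as a block, a fit chosen after seeing the data, the adjusted p in Ikzf3 N159S/N159S against Ikzf3 +/+ was 0.0603 for Pde3b (log2 change 0.26) and 0.252 for Pde4d (−0.15).

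Pde7a lies at chr3:19223108-19311322 on the minus strand and encodes a cyclic AMP-specific enzyme found in T cells. It was at 109 and 112 CPM in Ikzf3 +/+, at 93.8 and 106 CPM in Ikzf3 +/N159S, and at 122 and 144 CPM in Ikzf3 N159S/N159S. It was the member whose lowest libraries were heterozygous and whose highest were homozygous. The log2 change was 0.27 in Ikzf3 N159S/N159S (95% interval 0.03 to 0.51, adjusted p = 0.212) and −0.14 in Ikzf3 +/N159S (adjusted p = 0.575), both against Ikzf3 +/+. In the fit with the split by genes detected as a block, Pde7a was called in Ikzf3 N159S/N159S against Ikzf3 +/+ (0.27, adjusted p = 0.0261), against Ikzf3 +/N159S (0.41, adjusted p = 0.00172) and in the heterozygote against the midpoint of the other genotypes (−0.28, adjusted p = 0.0186). That block was chosen after seeing the data, and with it 1760, 834 and 682 of all 12117 tested genes were called in these comparisons. The fit without it called 631, 180 and 113 genes. Its exons overlap the antisense model Gm16093 over 48 bases, and whether the counting used strand was not stated.

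**Figure D2:**
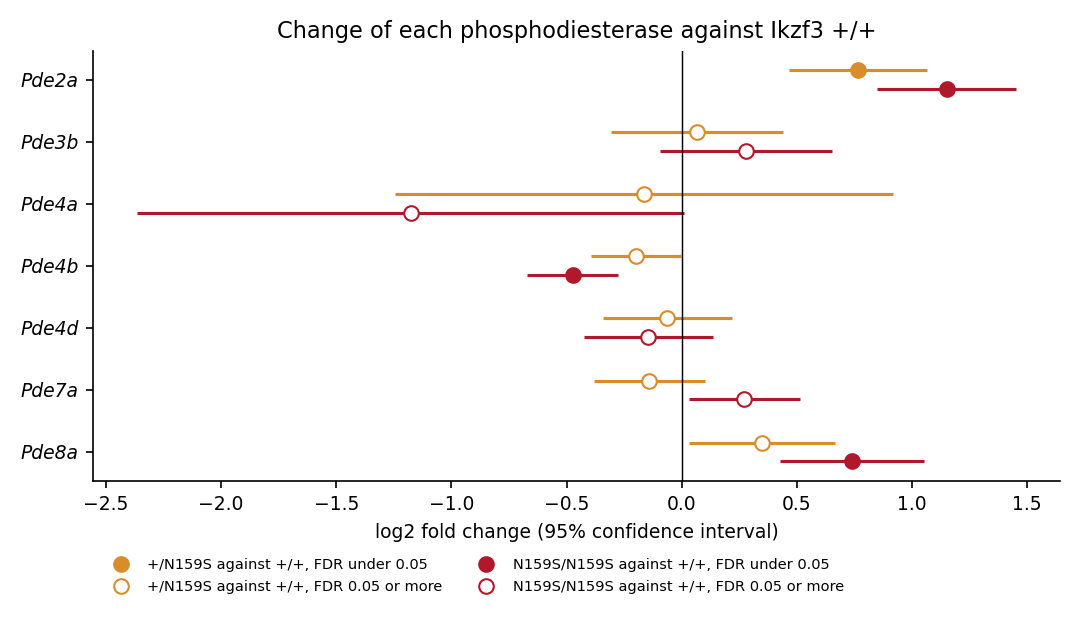
Log2 fold change against Ikzf3 +/+ (x axis) of each phosphodiesterase gene (y axis) in Ikzf3 +/N159S and Ikzf3 N159S/N159S, with 95% confidence intervals as bars and filled points where the adjusted p was under 0.05. Pde2a lies farthest to the right in both genotypes, and the wide interval of Pde4a comes with its 6 to 20 reads a library.

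Between the mutant genotypes and across the dosage series, fewer calls were made. In Ikzf3 +/N159S against Ikzf3 +/+, 1 of 7 members was called, which was Pde2a, beside 1.75% of all tested genes in either direction, 1.16% higher and 0.586% lower. Between Ikzf3 N159S/N159S and Ikzf3 +/N159S none was called by edgeR, beside 1.49% of all tested genes. DESeq2 called 1 of the 7 there, and 245 of all 12117 tested genes. At an unadjusted p under 0.05 there were 4 of 7, a level not counted over all genes. Pde7a was the one DESeq2 called there, with a log2 difference of 0.41 between the mutant genotypes in the edgeR fit (95% interval 0.17 to 0.65, adjusted p = 0.106). Pde2a differed there by 0.38 on the log2 scale (95% interval 0.09 to 0.68, adjusted p = 0.255), and Pde4b by −0.28 (adjusted p = 0.211).

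The heterozygous level was also set against the midpoint between Ikzf3 +/+ and Ikzf3 N159S/N159S in log2 units, which a gene would meet if each mutant copy added the same step. Against that midpoint 0 of 7 members were called by edgeR, beside 0.933% of all tested genes. DESeq2 called 0 of the 7, and 184 of all 12117 tested genes. At an unadjusted p under 0.05 there was 1 of 7, again without a count over all genes. For Pde2a the departure was 0.19 with a 95% interval of −0.06 to 0.45, for Pde8a −0.02 and for Pde4b 0.04. The member with the unadjusted p under 0.05 was Pde7a, which lay 0.28 under its midpoint on the log2 scale, a departure of −0.28 (adjusted p = 0.300). All 9 tested B cell markers were called above their midpoints, and their part in these results was not tested.

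Libraries of a pair of genotypes that did not overlap were common among all genes. All 7 members had non-overlapping libraries in Ikzf3 N159S/N159S against Ikzf3 +/+, 4 higher and 3 lower, beside 48.3% of all tested genes. In Ikzf3 +/N159S against Ikzf3 +/+ there were 4 of 7, 2 higher and 2 lower, beside 47.1%. Between the mutant genotypes there were 5 of 7, 3 higher and 2 lower, beside 41.1%.

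Levels of different members were compared per length, as CPM per kilobase of all annotated exons of the gene, which does not tell isoforms apart. In Ikzf3 +/+ the mean level fell from 36.4 for Pde3b to 15.4 for Pde4b, 14.2 for Pde7a, 14.0 for Pde2a, 10.2 for Pde4d, 3.48 for Pde8a and 0.163 for Pde4a. Pde7a and Pde2a, neighbours in that order, overlapped between libraries, and the other neighbours did not. In Ikzf3 N159S/N159S, Pde2a stood in the second place at 31.1 behind Pde3b at 44.2, and Pde4b, at 11.1, came after Pde7a at 17.2. No neighbours in the order of that genotype overlapped.

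The per-length ratio of Pde2a to Pde4b was 0.842 and 0.969 for the Ikzf3 +/+ libraries, 1.65 and 1.89 for Ikzf3 +/N159S, and 3.13 and 2.46 for Ikzf3 N159S/N159S. Per length, Pde2a was thus below Pde4b in both Ikzf3 +/+ libraries and above it in the other 4. In CPM not scaled by length, Pde2a was still below Pde4b in Ikzf3 +/N159S replicate 1, at 136.3 against 141.9. Of the per-length sum over the 7 members, the mean share of Pde2a was 14.9% for Ikzf3 +/+, 23.3% for Ikzf3 +/N159S and 26.3% for Ikzf3 N159S/N159S. Pde4b made up 16.4%, 13.3% and 9.38% in the same order. The sum itself was 93.5 and 94.4 CPM per kilobase for Ikzf3 +/+, 91.3 and 114 for Ikzf3 +/N159S, and 115 and 122 for Ikzf3 N159S/N159S, and the libraries of the first and the last genotype did not overlap.

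**Figure D3:**
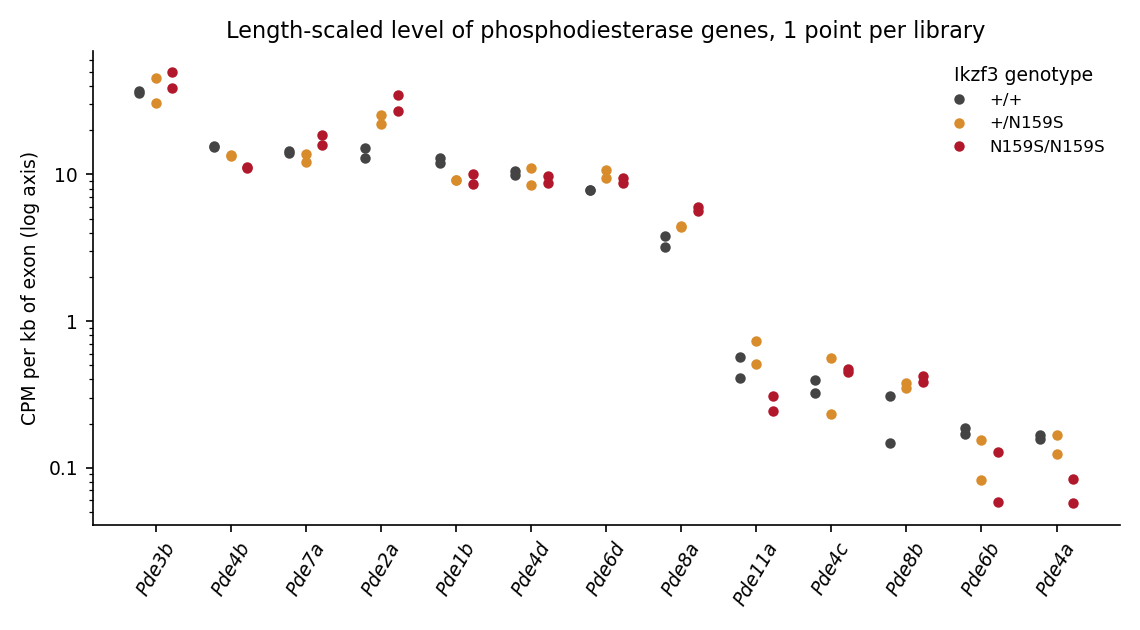
CPM per kilobase of exon (y axis, log scale) of members and other genes with a phosphodiesterase symbol (x axis, ordered by their mean in Ikzf3 +/+, those with a mean over 0.1), with a point for each library coloured by Ikzf3 genotype. Pde3b is the highest in every library, and the Pde2a points lie above those of Pde4b in both mutant genotypes but not in Ikzf3 +/+.

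Of 17 other genes with a phosphodiesterase symbol, 7 passed the filter and 10 did not, with 0 to 10 reads a library. Among them Pde6d, Pde6g and Pde6h do not encode catalytic subunits. None of the 7 was called by edgeR or DESeq2 in any of the comparisons, in which edgeR called 0.933% to 5.21% of all tested genes. Against Ikzf3 +/+, 1 of 7 in Ikzf3 N159S/N159S and 2 of 7 in Ikzf3 +/N159S had an unadjusted p under 0.05, a level not counted over all genes. Pde6d was 1 of the 2 in Ikzf3 +/N159S. The highest was Pde1b, encoding a calcium- and calmodulin-stimulated enzyme, at 64.5 and 69.2 CPM in Ikzf3 +/+, 49.4 and 49.5 CPM in Ikzf3 +/N159S, and 46.6 and 54.1 CPM in Ikzf3 N159S/N159S. Both mutant genotypes lay under Ikzf3 +/+ without overlap, with log2 changes of −0.44 (adjusted p = 0.0746) and −0.41 (adjusted p = 0.0540).

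The windows of 250 bases before annotated starts of members were read from RefSeq promoters (GRCm38.p6) and searched on both strands for TGGGAA, a core that Ikaros family proteins bind, and for the cyclic AMP response element TGACGTCA and its part TGACG, which overlaps it. RefSeq windows matched 5 members with 14 windows, and Pde3b and Pde7a had none. TGGGAA was in 3 of the 14 windows and in 21.6% of all 32851 windows, TGACG in 3 and 17.8%, and TGACGTCA in 0 and 1.55%. The matching windows of the 3 called members are printed to show where the letters lie, with matches in capitals (TTCCCA and CGTCA are the same motifs on the other strand). Counts over whole genes do not tell which start was used.
Pde2a chr7:101450270-101450519 plus strand: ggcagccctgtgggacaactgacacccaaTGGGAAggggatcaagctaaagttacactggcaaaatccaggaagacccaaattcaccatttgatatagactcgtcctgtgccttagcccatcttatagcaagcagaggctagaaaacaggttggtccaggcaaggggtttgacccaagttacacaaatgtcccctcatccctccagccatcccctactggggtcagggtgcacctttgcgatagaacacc
Pde4b chr4:102421305-102421554 plus strand: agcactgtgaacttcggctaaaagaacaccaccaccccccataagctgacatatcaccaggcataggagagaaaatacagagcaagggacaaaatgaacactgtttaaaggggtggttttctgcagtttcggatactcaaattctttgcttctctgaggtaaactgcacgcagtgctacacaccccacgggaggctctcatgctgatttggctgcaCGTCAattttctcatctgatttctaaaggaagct
Pde4b chr4:102569810-102570059 plus strand: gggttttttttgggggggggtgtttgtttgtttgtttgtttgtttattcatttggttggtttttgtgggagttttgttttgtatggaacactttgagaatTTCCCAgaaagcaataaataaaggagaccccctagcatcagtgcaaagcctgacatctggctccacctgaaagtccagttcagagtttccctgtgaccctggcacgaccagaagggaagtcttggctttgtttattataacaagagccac
Pde4b chr4:102589593-102589842 plus strand: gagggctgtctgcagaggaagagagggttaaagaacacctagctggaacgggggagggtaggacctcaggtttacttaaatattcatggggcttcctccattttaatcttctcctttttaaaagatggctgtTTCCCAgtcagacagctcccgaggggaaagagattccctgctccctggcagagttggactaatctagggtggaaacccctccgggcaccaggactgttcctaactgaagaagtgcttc
Pde8a chr7:81213015-81213264 plus strand: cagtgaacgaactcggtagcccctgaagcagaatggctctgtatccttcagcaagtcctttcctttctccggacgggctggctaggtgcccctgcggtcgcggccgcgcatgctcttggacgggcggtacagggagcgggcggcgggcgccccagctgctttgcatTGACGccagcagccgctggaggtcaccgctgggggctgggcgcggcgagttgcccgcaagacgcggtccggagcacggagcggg
The Pde2a window has TGGGAA 221 bases before its start, and the other Pde2a windows have neither motif. Pde4b has TGACG 34 bases before one start and TGGGAA 150 and 118 bases before others, and Pde8a has TGACG 84 bases before its start. These matches are letters in a window and were not tied to a change in reads.

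Other genes of the cyclic AMP pathway were counted in lists, 93 genes in all with the other genes with a phosphodiesterase symbol, of which 67 were tested. In Ikzf3 N159S/N159S against Ikzf3 +/+, 2 were called higher and 6 lower, and in Ikzf3 +/N159S against Ikzf3 +/+, none higher and 4 lower. Of all tested genes, 3.1% were higher and 2.1% lower in the former comparison, and 1.16% higher and 0.586% lower in the latter. The median log2 change of the 67 was −0.03 and −0.13, beside 0.00018 and 0.01 over all tested genes. The calls in Ikzf3 N159S/N159S fell on 2 receptors, 1 adenylyl cyclase, 1 Epac factor, 1 anchoring protein and 3 response genes. Without Ikzf3 +/+ replicate 1 or 2 the calls there were 5 and 4, and with any 1 library of the other genotypes left out they were 6 to 9.

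Among receptors that raise cyclic AMP, 7 of 12 were tested. Ptgir, the prostacyclin receptor, was at 7.89 and 6.18 CPM in Ikzf3 +/+, 11.8 and 12.4 CPM in Ikzf3 +/N159S, and 17.5 and 21.2 CPM in Ikzf3 N159S/N159S, without overlap. It rose by 1.46 on the log2 scale in Ikzf3 N159S/N159S (adjusted p = 0.000778). Vipr1, a receptor for vasoactive intestinal peptide and the highest of the list, fell in Ikzf3 N159S/N159S from 317 and 346 CPM to 252 and 222 CPM (log2 change −0.48, adjusted p = 0.0197). That call was lost without Ikzf3 +/+ replicate 1 (−0.55), without Ikzf3 +/+ replicate 2 (−0.42) and without Ikzf3 N159S/N159S replicate 2 (−0.38). In Ikzf3 +/N159S, Vipr1 was at 254 and 238 CPM (−0.43, adjusted p = 0.0639 by edgeR). DESeq2 called it there, beside 328 of all 12117 tested genes. In Ikzf3 N159S/N159S, DESeq2 also called Adora2a, named after its values were seen, beside 671 of all tested genes. By edgeR its log2 change was 0.56 (adjusted p = 0.0578). Of 5 tested adenylyl cyclase genes, Adcy6, an isoform inhibited by calcium, fell in both mutant genotypes, from 162 and 179 CPM to 109 and 132 CPM in Ikzf3 +/N159S (log2 change −0.50, adjusted p = 0.0491) and 106 and 108 CPM in Ikzf3 N159S/N159S (−0.67, adjusted p = 0.00557). The call in Ikzf3 N159S/N159S was lost without Ikzf3 +/+ replicate 2 (−0.59, adjusted p = 0.0593), and that in Ikzf3 +/N159S without either Ikzf3 +/+ library (−0.57 and −0.43), without Ikzf3 +/N159S replicate 1 (−0.37) and without Ikzf3 N159S/N159S replicate 2 (−0.51). The latter call was also lost with the replicate number as a block (adjusted p = 0.0598), with a minimum of 10 counts in every library (adjusted p = 0.0516) and in a fit of the 2 genotypes alone (adjusted p = 0.0534). Adcy7, the highest of that list, and the inhibitory subunit Gnai2, the highest of 4 tested G alpha genes, did not pass. No G alpha gene was called by edgeR or DESeq2 in either comparison with Ikzf3 +/+, in which edgeR called 5.21% and 1.75% of all tested genes. At an unadjusted p under 0.05, not counted over all genes, there was 1 in Ikzf3 N159S/N159S and 0 in Ikzf3 +/N159S.

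Downstream, edgeR called none of 7 tested protein kinase A genes, Prkar1a as the highest among them, and none of 8 CREB family genes and coactivators, Ep300 as the highest, against Ikzf3 +/+. Of all tested genes, edgeR called 5.21% in Ikzf3 N159S/N159S and 1.75% in Ikzf3 +/N159S. At an unadjusted p under 0.05, a level not counted over all genes, there were 1 kinase A gene and 0 CREB genes in Ikzf3 N159S/N159S and 2 of each in Ikzf3 +/N159S. In the latter DESeq2 called 1, the coactivator Crebbp, named after its values were seen, beside 328 of all 12117 tested genes. Rapgef4, the Epac gene that passed the filter, fell in Ikzf3 N159S/N159S from 103 and 96.3 CPM to 65.5 and 74.5 CPM (log2 change −0.51, adjusted p = 0.0402), a call lost with the replicate number as a block (adjusted p = 0.0501) and without any 1 of the 4 libraries (−0.60 to −0.42, adjusted p = 0.0776 to 0.237). Akap12, a scaffold that holds protein kinase A at the membrane, fell in both mutant genotypes and was the 1 gene of 17 tested anchors and partners that was called, while Rack1, a partner of PDE4D5 and the highest, did not pass. Akap12 was at 28.0 and 25.9 CPM in Ikzf3 +/+, 15.04 and 14.5 CPM in Ikzf3 +/N159S, and 14.6 and 14.2 CPM in Ikzf3 N159S/N159S, with log2 changes of −0.87 (adjusted p = 0.0100, lost without Ikzf3 +/+ replicate 1 at −0.81 and adjusted p = 0.0552) and −0.90 (adjusted p = 0.00285). The mutant genotypes lay close to each other and far under Ikzf3 +/+.

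Of 11 tested genes on a list of cyclic AMP response genes, 1 was called higher and 2 lower in Ikzf3 N159S/N159S against Ikzf3 +/+. Of all tested genes, 3.1% were higher and 2.1% lower there. In Ikzf3 +/N159S against Ikzf3 +/+, 0 were called higher and 2 lower, beside 1.16% and 0.586% of all tested genes. Nr4a3, an orphan nuclear receptor, fell in Ikzf3 N159S/N159S (log2 change −0.85, adjusted p = 0.00445). Sik1, a salt-inducible kinase that restrains CREB coactivators, was at 231 and 261 CPM in Ikzf3 +/+, 155 and 180 CPM in Ikzf3 +/N159S, and 157 and 158 CPM in Ikzf3 N159S/N159S, and fell in both (log2 changes −0.55 and −0.65, adjusted p = 0.0282 and 0.00522). The fall of Sik1 in Ikzf3 N159S/N159S was lost without Ikzf3 +/+ replicate 2 (−0.56, adjusted p = 0.0596), and that in Ikzf3 +/N159S without either Ikzf3 +/+ library (−0.64 and −0.46) and without Ikzf3 +/N159S replicate 1 (−0.45). Nr4a1, the highest of the list, did not pass (adjusted p = 0.264 in Ikzf3 N159S/N159S). The clock gene Per1 moved in opposite directions, from 199 and 231 CPM in Ikzf3 +/+ down to 155 and 142 CPM in Ikzf3 +/N159S (log2 change −0.53, adjusted p = 0.0293) and up to 314 and 299 CPM in Ikzf3 N159S/N159S (0.51, adjusted p = 0.0160). Per1 also differed between the mutant genotypes, by 1.05 on the log2 scale (adjusted p = 0.000783). The call of Per1 in Ikzf3 N159S/N159S was lost without Ikzf3 +/+ replicate 1 (0.41) and without either Ikzf3 N159S/N159S library (0.48 and 0.56), and that in Ikzf3 +/N159S without Ikzf3 +/+ replicate 2 (−0.42) and without either Ikzf3 +/N159S library (−0.60 and −0.47). With the replicate number as a block the latter call was also lost (−0.53, adjusted p = 0.0608).

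**Figure D4:**
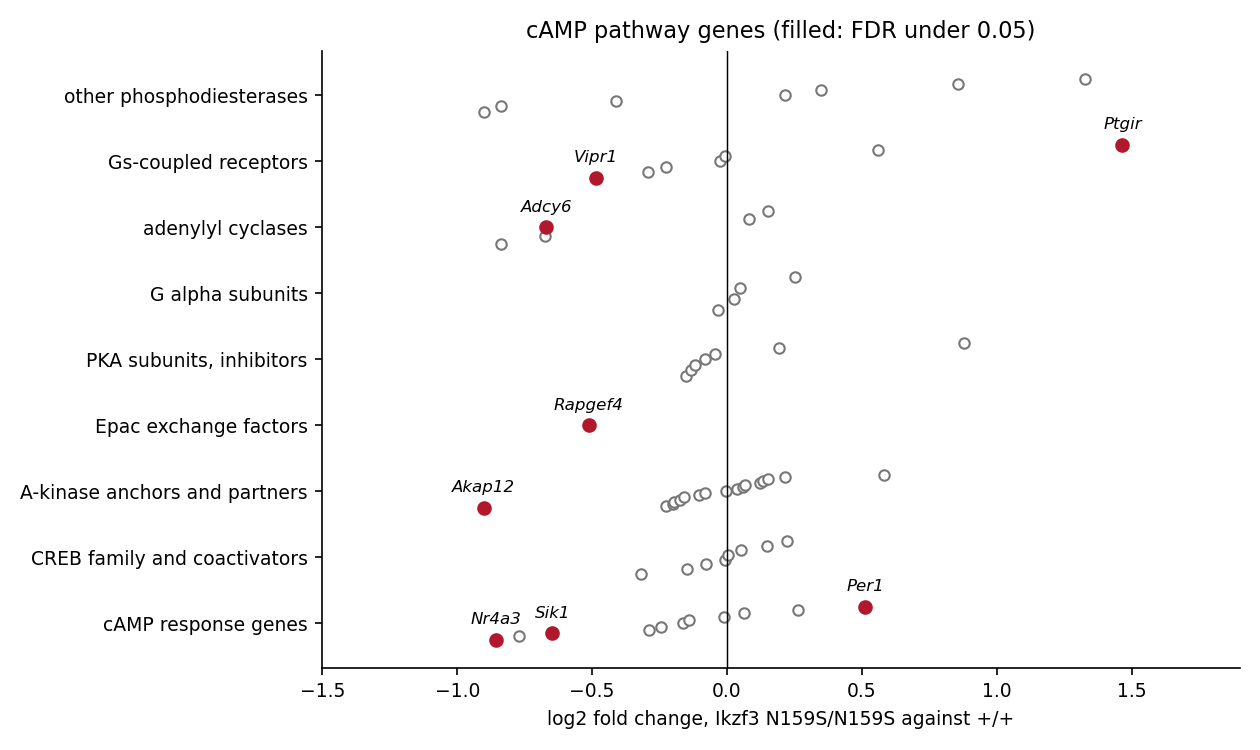
Log2 fold change in Ikzf3 N159S/N159S against Ikzf3 +/+ (x axis) of the tested cyclic AMP pathway genes and other genes with a phosphodiesterase symbol, a point for each gene in rows by list (y axis), filled where the adjusted p was under 0.05. The 8 filled points are named, with Ptgir and Per1 right of 0 and 6 genes left of it.

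The gene most like each member over the 6 libraries, by Pearson's r of log2 CPM among 8712 genes whose log2 CPM averaged 3 or more, was Rusc1 for Pde2a (r = 0.997), Tlnrd1 for Pde8a (0.999), Osbpl5 for Pde4b (0.999), Wrap53 for Pde3b (0.987), Tspan31 for Pde4a (0.992), Ovca2 for Pde4d (0.996) and Cds2 for Pde7a (0.992). The 6 points are libraries in 3 genotypes, in which genes share depth, and the highest of 8712 values is high by construction. Osbpl5 stepped down like Pde4b, from 22.1 and 23.8 CPM in Ikzf3 +/+ through 14.3 and 15.1 CPM to 7.96 and 7.32 CPM in Ikzf3 N159S/N159S.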

How the data were processed

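RNA-seq of splenic naive CD4 T cells was analysed in 6 libraries, 2 for each of 3 Ikzf3 genotypes. B cell samples of the study were not analysed here. Per the methods, the authors selected poly(A) RNA, trimmed reads with Trimmomatic 0.38.1, aligned them to mm10 with HISAT2 2.2.1 and assigned them to refGene genes with HTSeq 2.0.2. They deposited raw counts per gene. Whether the counting used strand is not given in the sources used here. Entries on no gene were left out.

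Differences were tested with edgeR 4.0.16 (R 4.3.3). Genes were filtered by filterByExpr (minimum count 10, minimum total 15), scaled by TMM and fitted by a quasi-likelihood model with 1 coefficient per genotype. Adjusted p is the Benjamini-Hochberg value over all 12117 genes tested, called under 0.05. Exon lengths came from GENCODE M21 and promoters from RefSeq. The scripts were tested on simulated data. Alternatives were DESeq2 1.42.0, its size factors, other filters, a fit of the 2 genotypes compared, the replicate number as a block, and each library left out. Replicates of a genotype differed by more than counting noise. Members and lists were chosen with earlier results of these data known. Named were the members, pathway genes called against Ikzf3 +/+, the highest gene of each list and the gene most like each member.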

Additional observations from a re-analysis of the deposited data

How the results depend on the processing

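The number of the 7 members called was 3 in Ikzf3 N159S/N159S against Ikzf3 +/+ (1 to 3 with a library left out) and 1 in Ikzf3 +/N159S (0 to 1). Between the mutant genotypes it was 0, but 1 with DESeq2 and 2 without a filter on low counts. Of the other pathway genes, 8 were called in Ikzf3 N159S/N159S (4 to 9 with a library left out) and 4 in Ikzf3 +/N159S (1 to 6), the latter 7 with DESeq2, 11 without a filter and 2 with the replicate number as a block. The replicate block left 3, 1 and 0 members called in the 3 comparisons of genotypes and 0 against the midpoint. Deviations of same-numbered libraries correlated at −0.17, −0.22 and 0.24. With 2 libraries a genotype, these values cannot decide whether the numbers pair the libraries. A block for the library with more genes detected in each genotype, chosen after seeing the data, gave 4 members in Ikzf3 N159S/N159S against Ikzf3 +/+, with Pde7a added, 3 between the mutant genotypes, 1 (Pde7a) against the midpoint, and 15 and 17 pathway genes in the 2 comparisons with Ikzf3 +/+. With that added block, 1385 of all 12117 tested genes were called in Ikzf3 +/N159S against Ikzf3 +/+, 834 between the mutant genotypes and 682 against the midpoint. All genes called in Ikzf3 N159S/N159S were 631, between 257 and 734 with a library left out, 1047 without a filter and 1760 with that added block.

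Changes of direction were confined, among the members and Ikzf3 under the alternatives run, to values that were not called. With a library left out, the log2 difference in Ikzf3 +/N159S against Ikzf3 +/+ ran from −0.25 to 0.32 for Pde3b, −0.40 to 0.043 for Pde4a, −0.27 to 0.12 for Pde4d and −0.036 to 0.11 for Ikzf3. Between the mutant genotypes it ran from −0.046 to 0.53 for Pde3b and −0.26 to 0.12 for Pde4d. Against the midpoint it ran from −0.39 to 0.19 for Pde3b, −0.19 to 0.19 for Pde4d and −0.080 to 0.040 for Pde8a, and Pde4d was at −0.0033 with DESeq2's size factors and −0.0011 with DESeq2. The cause of these shifts was not tested. The 2 libraries a genotype limit all comparisons, and the 6 to 20 reads of Pde4a limit what could be seen for it.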
